A study of Mus musculus with 2 samples.

Results

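Genes of arginine and polyamine metabolism were examined in T helper 2 (Th2) cells cultured from Ecm1 knockout and wild-type mice. The group holds 10 genes: Arg1, Arg2, Ass1, Odc1, Srm, Sms, Amd1, Oat, Azin1 and Sat1. They were taken as every probe set whose only gene symbol in the platform annotation is 1 of these names, which gave 13 of the 45101 probe sets on the array. These cover 8 of the 10 genes, out of 18193 named genes. The genes were chosen with results of these arrays known, so their differences are a description and none of them is tested.

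The product of Ecm1 is a glycoprotein that cells secrete into their matrix. The series held 2 arrays, 1 for Th2 cells of the Ecm1 knockout (KO) and 1 for Th2 cells of wild type (WT), both on the C57BL/6 strain and from mice labelled female and 6 weeks old. Spleen cells selected with an anti-CD4 antibody were cultured in both groups for 4 days on bound anti-CD3 at 3 µg/ml with soluble anti-CD28 at 2 µg/ml. The Th2 conditions were IL-4 at 10 ng/ml, a unit the labels misprint, with antibodies that block IFN-γ and IL-12 at 10 µg/ml each. The number of mice behind an array and the extent of the deletion are not stated in the labels. With 1 array a group there was no replicate, so no difference carries an SD, a test or a p-value.

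Arginase splits arginine into urea and ornithine. Ornithine decarboxylase turns ornithine into putrescine, the spermidine and spermine synthases lengthen putrescine to spermidine and spermine with aminopropyl groups from decarboxylated S-adenosylmethionine, and ornithine aminotransferase sends ornithine towards glutamate and proline instead. Activated T cells take up arginine and raise polyamine synthesis as they grow, whereas arginase 1 is best known in this setting as an enzyme of macrophages exposed to IL-4, in which it is induced through STAT6, and of hepatocytes.

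Values are linear probe-set signals, and a signal below the median of its array (65.5 on the KO array, 69.2 on the WT array) was treated as at the floor. Log2 differences are KO minus WT, centred on the median difference of 20834 probe sets. These lay at or above the floor of each array, and such probe sets and genes are called measured here. The median was -0.10. The spread between different probe sets of the same gene, 0.36 on the log2 scale over 4657 genes, is the only internal measure of error and leaves out mice, cultures and arrays. Ecm1 read 19.3 on the KO array and 29114.7 on the WT array. The Y-linked Eif2s3y read 2214.4 on the KO array and 25.0 on the WT array, where it was below the floor. Of the other Y-linked genes, Kdm5d and Uty read 410.0 and 352.9 on the KO array in the probe set highest there, against 20.3 and 10.6 on the WT array. Xist, which coats the silenced X of female cells, read 8715.3 on the KO array and 19739.9 on the WT array in its brightest probe set. Y-linked and Xist signal thus stood together on the KO array, which goes against its label of female mice, and the arrays differ in this. T cell markers were present on both arrays, with Cd3d at 15919.3 on the KO array and 24487.0 on the WT array. The sample descriptions name liver, and all 10 hepatocyte markers named on the array, among them Alb, Cps1 and Otc, were below the floor on both.

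Upstream windows are shown for genes of the group that lay far apart in their difference: Odc1 and Oat, both higher on the KO array, and Ass1, which was not. Each is the 250 bases before the transcript start that the RefSeq promoter table uses, on build GRCm38.p6, and capitals mark a match to any of 3 motifs searched on both strands.
Odc1, chr12:17544623-17544872, plus strand: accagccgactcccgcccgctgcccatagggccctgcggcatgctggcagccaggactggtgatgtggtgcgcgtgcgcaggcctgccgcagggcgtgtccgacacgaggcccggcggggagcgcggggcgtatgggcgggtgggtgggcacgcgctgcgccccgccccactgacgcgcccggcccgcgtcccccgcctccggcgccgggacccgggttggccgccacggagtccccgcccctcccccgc
Oat, chr7:132576399-132576648, minus strand: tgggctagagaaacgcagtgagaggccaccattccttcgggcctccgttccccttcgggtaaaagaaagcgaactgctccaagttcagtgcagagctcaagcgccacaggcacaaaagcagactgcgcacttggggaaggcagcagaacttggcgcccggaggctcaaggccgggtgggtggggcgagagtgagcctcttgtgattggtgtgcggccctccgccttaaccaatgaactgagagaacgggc
Ass1, chr2:31470020-31470269, plus strand: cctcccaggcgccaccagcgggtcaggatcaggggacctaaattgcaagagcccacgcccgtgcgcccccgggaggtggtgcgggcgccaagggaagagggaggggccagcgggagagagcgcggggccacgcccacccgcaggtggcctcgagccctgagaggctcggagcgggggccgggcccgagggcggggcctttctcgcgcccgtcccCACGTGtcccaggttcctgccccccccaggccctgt
The last 65 bases of the Odc1 window lie inside the span that RefSeq gives for the whole gene, which begins further upstream. The motifs were CACGTG, an E-box that MYC with MAX binds, the STAT6 motif of TTC and GAA with 4 bases between them, and TGATGNAA, which ATF4 with a C/EBP partner binds. Windows were found for 6 of the 10 genes, 7 windows in all, since Sms has 2 starts. Arg1, Arg2, Azin1 and Srm had no window, so no motif was searched for in these genes. CACGTG stood in the Ass1 window, its first base 36 bases before the start, and in 1 of the Sms windows. The other motifs matched in none of the 7 windows, and no matches overlapped. Among 32851 windows of this length over all genes, 6.02% held CACGTG, 5.85% held the STAT6 motif and 3.45% held TGATGNAA. The GC content was 80.0% in the Odc1 window, 60.0% in the Oat window and 75.6% in the Ass1 window, with a median of 52.4% over all windows. A match is a run of letters and not a shown binding site, and no bases outside these windows were searched.

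Arg1 had the largest difference of the group. Its probe set, 1419549_at, read 1484.4 on the KO array and 167.7 on the WT array, a centred log2 difference of 3.25, or 9.5-fold. The WT signal was above the floor of 69.2, so the fold is measured on both sides. Counted from the highest difference, KO minus WT, Arg1 ranked 10 from the top among 10144 measured genes. Arg2, the mitochondrial arginase, is encoded by a separate gene, and neither of its probe sets reached the floor on either array. They read 20.5 and 21.3 on the KO array, against 11.3 and 10.6 on the WT array, and signals at the floor give no fold. Of the arginase genes only Arg1 was thus above the floor.

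The genes whose pair of signals lay nearest to that of Arg1 were Nts, Alpl and St14, at distances of 0.27, 0.28 and 0.50 in the plane of the log2 signals on the 2 arrays. Nts, which encodes the peptide neurotensin, read 1566.2 on the KO array and 200.0 on the WT array. Alpl, the tissue-nonspecific alkaline phosphatase, read 1222.6 on the KO array and 168.0 on the WT array. St14, the membrane serine protease matriptase, read 1158.9 on the KO array and 212.7 on the WT array. With 2 arrays such nearness says only that the signals are alike.

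Odc1, the ornithine decarboxylase at the entry of polyamine synthesis, was higher on the KO array in all 3 of its probe sets. The brightest, 1437711_x_at, read 8649.8 on the KO array and 2308.1 on the WT array (2.01 on the log2 scale, 4.02-fold). The next, 1438761_a_at, read 5916.6 on the KO array and 1763.6 on the WT array (1.85). The dimmest, 1427364_a_at, read 911.4 on the KO array and 329.1 on the WT array (1.57). The 3 differences thus span 1.57 to 2.01, and the lowest of them was still past 2-fold. A name ending in _x_at marks a probe set that can share signal with other transcripts, and the 2 other Odc1 probe sets do not carry it.

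Azin1 encodes the antizyme inhibitor, a relative of Odc1 without decarboxylase activity that binds antizyme and so spares Odc1 from degradation. Its difference had the same sign as that of Odc1 and stayed within 2-fold. Its brightest probe set, 1450714_at, read 2117.2 on the KO array and 1339.3 on the WT array (0.76 on the log2 scale, 1.70-fold). A second, 1422702_at, read 1755.1 on the KO array and 1036.3 on the WT array (0.86). The probe set 1430984_at was below the floor on both arrays, at 28.3 on the KO array and 8.5 on the WT array. Averaging all 3, which takes in signals below the floor, gave a log2 difference of 1.15, past 2-fold.

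Srm, the spermidine synthase, was close to Odc1 in its difference. Its probe set, 1421260_a_at, read 4216.6 on the KO array and 1145.9 on the WT array (1.98 on the log2 scale, 3.95-fold). Odc1 and Srm ranked 101 and 106 from the top of the 10144 genes. For the 2 other genes of this step, Amd1, which makes the aminopropyl donor, and Sms, the spermine synthase, no probe set carries the symbol alone. Neither entered a comparison. The 3 probe sets listed under both Sms and a second symbol, Sms-ps, are described at the end. They were at -0.11, -0.17 and a bound of at least 1.80-fold lower on the KO array.

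Oat, the mitochondrial ornithine aminotransferase, was also higher on the KO array. Its probe set, 1416452_at, read 2898.7 on the KO array and 1120.9 on the WT array (1.47 on the log2 scale, 2.78-fold), which ranked 280 from the top. The genes for both main exits from ornithine, to putrescine and to glutamate and proline, were higher on the same array as Arg1.

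Sat1 and Ass1 lay near 0 in their difference. Sat1, the acetyltransferase that marks spermidine and spermine for breakdown or export, read 5991.1 on the KO array and 7405.1 on the WT array (-0.20 on the log2 scale, 0.869-fold). Ass1, the argininosuccinate synthase that rebuilds arginine from citrulline, read 164.2 on the KO array and 173.8 on the WT array (0.02 on the log2 scale). Both differences were smaller than the 0.36 spread between probe sets of 1 gene, and that of Ass1 changed sign without centring (-0.08). A brighter probe set that the annotation lists under both Ass1 and Gm5424 read 1773.9 on the KO array and 3104.1 on the WT array (-0.70), and its signal cannot be assigned to either gene.

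**Figure D1:**
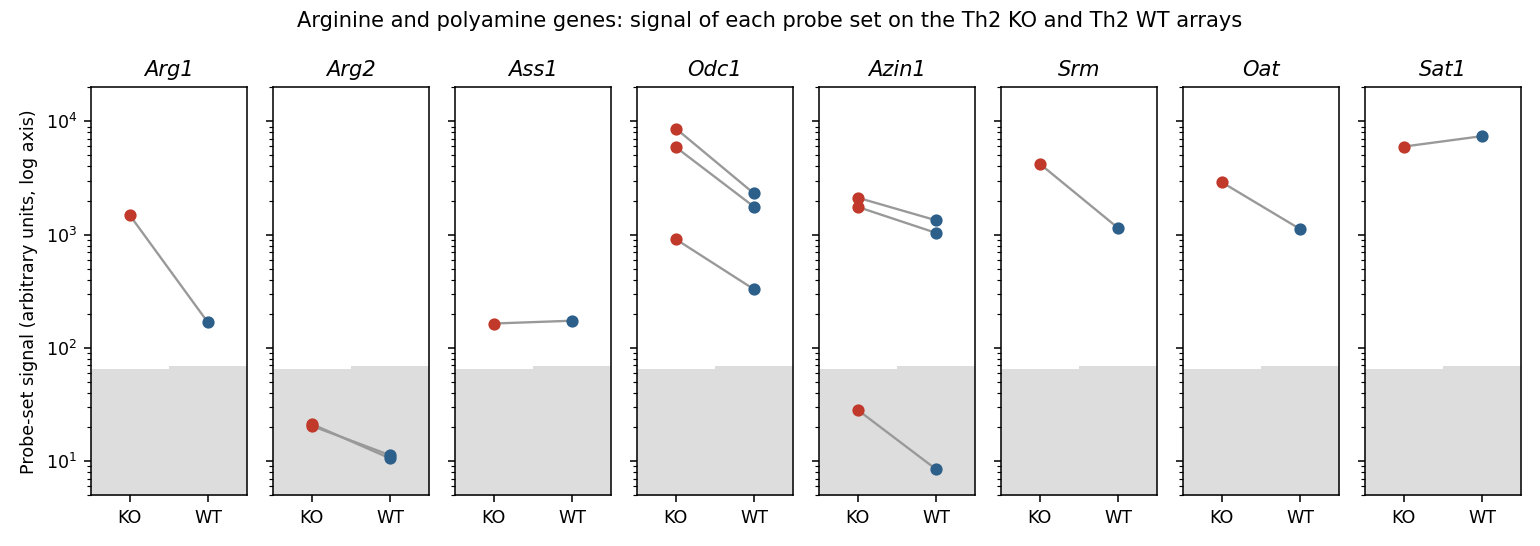
Signal of each probe set of the 8 named genes on the KO array (red, left) and the WT array (blue, right), on a log axis in arbitrary units. Each line joins 1 probe set, and the grey band lies below the floor of that array (65.5 and 69.2). The lines of Arg1, Odc1, Srm and Oat slope down to WT, those of Ass1 and Sat1 are nearly level, and both Arg2 probe sets lie in the band.

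Of the 7 measured genes, Arg1, Odc1, Srm and Oat exceeded WT by 2-fold or more on the KO array, none was lower by as much, and Azin1, Ass1 and Sat1 were within 2-fold. Over all 10144 measured genes, 7.15% were higher by 2-fold or more and 4.45% lower by as much, and since the 7 were chosen with their values known nothing is read from the contrast. Of all genes past 2-fold, 61.6% were higher on the KO array after centring and 49.0% were in the signals as deposited. The median log2 difference of the 7 was 1.47, against 0.04 over all genes. Of the 10 measured probe sets of these genes, 6 were higher by 2-fold or more and none lower by as much, against 7.22% and 4.68% of the 17951 named probe sets.

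**Figure D2:**
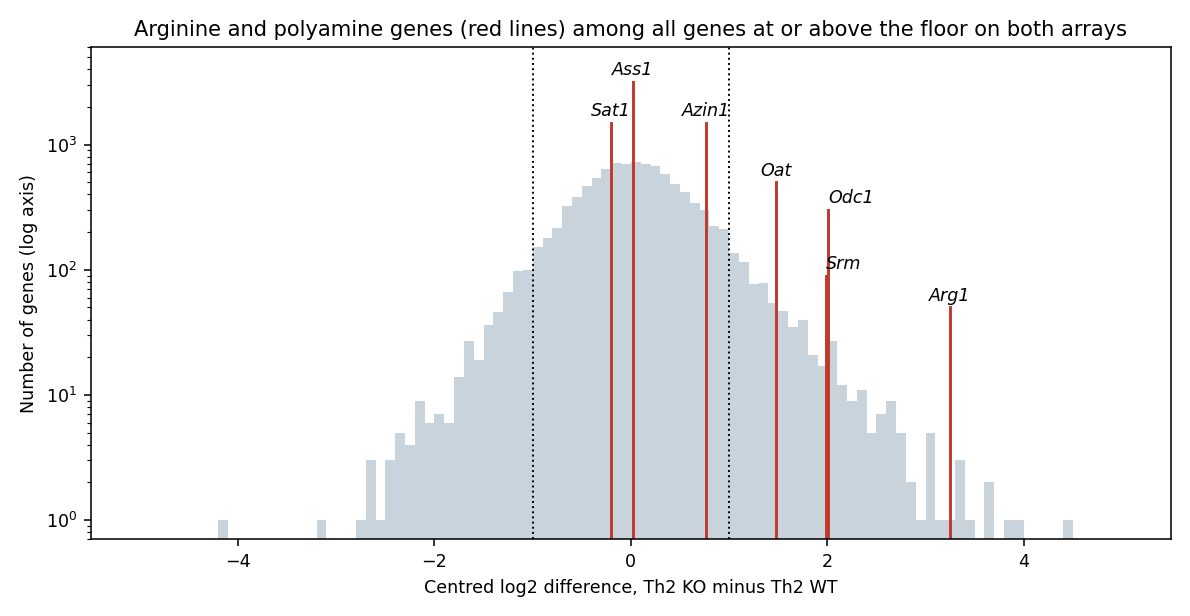
Number of genes (log axis) by centred log2 difference, KO minus WT, for the 10144 measured genes, with 7 arginine and polyamine genes as red lines and 2-fold as dotted lines. Arg1 at 3.25 lies far out on the higher side, Odc1 (2.01), Srm (1.98) and Oat (1.47) lie beyond 2-fold, and Azin1 (0.76), Ass1 (0.02) and Sat1 (-0.20) lie inside it.

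Beyond these genes, a list of 46 others of the pathway was followed by role. Of its 34 measured genes, 5 were higher on the KO array by 2-fold or more, none was lower by as much, and 29 were within 2-fold. Over all 10144 measured genes, 7.15% were higher by 2-fold or more and 4.45% lower by as much. The list was chosen with earlier results of these data known, so nothing is read from the contrast. The median log2 difference of the 34 was 0.13, against 0.04 over all genes. A further 7 of the list were below the floor on both arrays. Of the rest, 1 was below it on the KO array only, and the other 4 had no probe set of their own name alone.

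Genes listed under arginine uptake held 3 of the 5, and uptake itself was not measured. Slc3a2, the heavy chain shared by several amino acid transporters, read 4444.9 on the KO array and 1655.5 on the WT array (1.53 on the log2 scale). Slc7a7, a light chain that pairs with it to carry arginine, read 211.7 on the KO array and 81.3 on the WT array (1.48), with the WT signal near the floor. Slc7a2, an arginine carrier of macrophages and liver, read 269.8 on the KO array and 129.8 on the WT array (1.16). With the floor raised to the 70th percentile, Slc7a7 and Slc7a2 were no longer measured. With all probe sets of a gene averaged, Slc7a2 and Slc7a7 likewise dropped out of those past 2-fold. Slc7a1, a widely expressed carrier of arginine and other cationic amino acids, read 2458.7 on the KO array and 1429.5 on the WT array, with 0.89 in its brighter measured probe set and 1.14 in the other. Slc7a6, another partner of Slc3a2, was at -0.04.

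Genes listed under arginine synthesis and other use of arginine had no member past 2-fold among 5 measured. Asl, which follows Ass1 in arginine synthesis, was at -0.36. Azin2, which was listed in this role though it encodes a second antizyme inhibitor, was at -0.58. The inducible nitric oxide synthase Nos2, which competes with arginase for arginine in macrophages, was below the floor on both arrays at 3.5 on the KO array and 4.3 on the WT array. It falls outside the rule for named genes and was named after its values were seen. The urea cycle genes Cps1 and Otc were below the floor on both arrays.

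On the way between glutamate, ornithine and proline, Aldh18a1, which starts proline and ornithine synthesis from glutamate, read 5126.0 on the KO array and 2464.2 on the WT array (1.16 on the log2 scale). Its 5 measured probe sets ran from 0.62 to 1.30, and with them averaged it was within 2-fold. Pycrl, a pyrroline-5-carboxylate reductase also called Pycr3, was at 0.70, and Prodh, which breaks proline down, at -0.26.

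Of the 3 antizymes, which send Odc1 to the proteasome when polyamines are plentiful, 2 were measured and within 2-fold, and Oaz3 was below the floor on both arrays. Oaz1 read 24707.7 on the KO array and 25684.6 on the WT array (0.05 on the log2 scale), and Oaz2 was at -0.38. Among genes of polyamine oxidation and transport none of 3 measured was past 2-fold by its brightest probe set. For the polyamine transporter genes Atp13a3 and Atp13a2 the probe sets disagreed, from 0.03 to 1.04 and from -0.26 to 1.23. The 2 probe sets of the spermine oxidase gene Smox, named after its values were seen, were both lower on the KO array, at -0.43 and -1.30. None of the 4 genes of hypusine, the residue that spermidine is used to build on the translation factor eIF5A, was past 2-fold. Eif5a itself was at 0.44 and Dhps, which transfers the spermidine part, at 0.21.

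The aminopropyl transfers leave methylthioadenosine, which Mtap cleaves for salvage to methionine. Mtap read 1159.2 on the KO array and 545.2 on the WT array (1.19 on the log2 scale), with its 4 probe sets from 0.75 to 1.19. It was the only 1 of 7 measured genes of the methionine cycle and salvage past 2-fold. Ahcy was at 0.24 and Mat2b, the regulatory subunit of methionine adenosyltransferase, at -0.64. The enzymes after Mtap ran both ways, from Apip at 0.69 to Adi1 at -0.92, and these 2 were named after their values were seen.

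None of the 5 transcription factor genes followed was past 2-fold. Atf4, the amino acid stress factor, read 7212.5 on the KO array and 4163.8 on the WT array (0.90 on the log2 scale), with 0.93 in its other measured probe set. Stat6, which carries the IL-4 signal, read 2126.5 on the KO array and 3556.3 on the WT array (-0.64). Myc, a known activator of Odc1 and Srm and named here after its values were seen, read 1510.1 on the KO array and 2031.0 on the WT array (-0.32). This difference was smaller than the 0.36 spread between probe sets, and the part of Myc in the differences of Odc1 and Srm was not tested. Cebpb and Max, also named after their values were seen, were at 0.53 and -0.19.

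**Figure D3:**
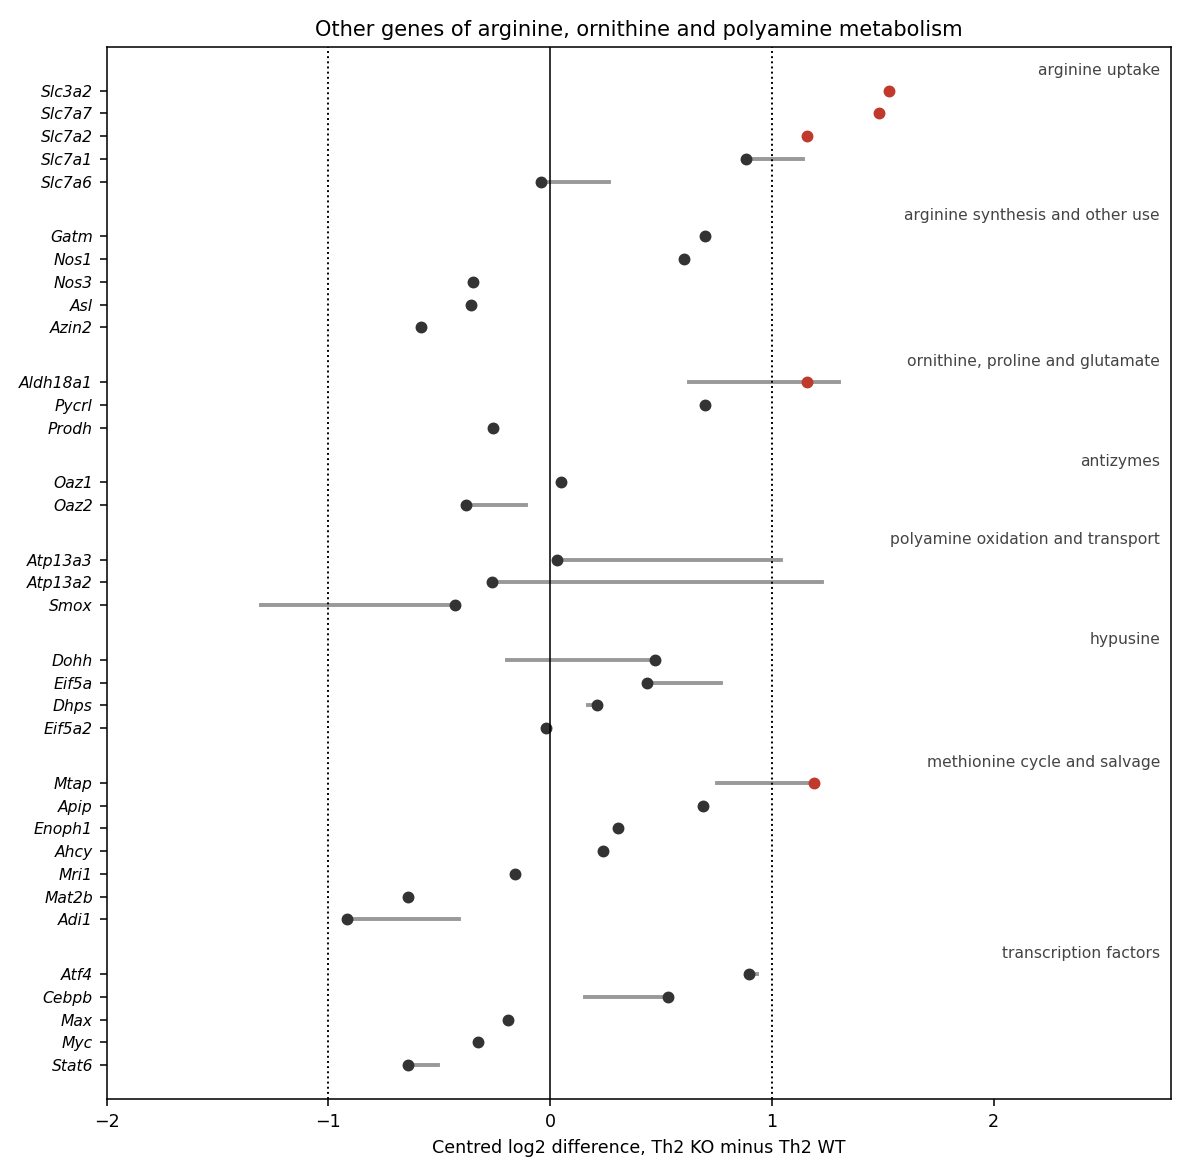
Centred log2 difference, KO minus WT, of the 34 other measured pathway genes, grouped by role. Points are the brightest probe set (red at or beyond 2-fold), grey bars span all measured probe sets of the gene, and dotted lines mark 2-fold. Slc3a2, Slc7a7, Slc7a2, Aldh18a1 and Mtap lie beyond 2-fold on the higher side, and no point lies beyond it on the lower side.

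Markers of several cell types differed between the same arrays. Over all 10144 measured genes, 7.15% were higher on the KO array by 2-fold or more and 4.45% lower by as much. The marker lists were chosen with earlier results of these data known, so nothing is read from their counts. In a bulk RNA sample, fewer cells of a type and less of its RNA per cell cannot be told apart. Of 16 macrophage and monocyte markers 15 were named on the array, and 6 of them were measured. Of these, 3 were higher on the KO array by 2-fold or more and none was lower. They were Chil3, a chitinase-like protein that IL-4 induces in macrophages together with Arg1 (1039.5 on the KO array and 78.0 on the WT array), the lysozyme Lyz2 (2796.2 on the KO array and 275.5 on the WT array) and the receptor Csf1r (243.5 on the KO array and 120.2 on the WT array). The complement gene C1qb, below the floor on the WT array, had only a bound of at least 2.27-fold. The other 3 measured, Cd68, Adgre1 and Cd14, were within 2-fold, at 0.97, 0.67 and 0.41 on the log2 scale. The WT signal of Chil3 was near the floor of 69.2. The summed signal of the list was 5541.0 on the KO array and 1250.4 on the WT array, with Lyz2 and Chil3 the largest on the KO array. This sum and those of the lists below are of signals as deposited and take in signals below the floor. Itgam, Retnla, Marco and Mertk were below the floor on both arrays, while Adgre1 read 200.5 on the KO array and 135.5 on the WT array. The part of these cells in the Arg1 difference was not tested.

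Of 9 neutrophil markers 6 were below the floor on both arrays, and 1, Mmp8, was measured on both (1.72 on the log2 scale), with summed signals of 613.2 on the KO array and 336.6 on the WT array. Hepatocyte markers summed to 153.4 on the KO array and 192.1 on the WT array, with none above the floor. Plasma cell markers, whose cells make large amounts of secreted protein, were higher on the KO array. Of their 7 measured genes 5 were past 2-fold, against 7.15% of all measured genes. The summed signals of the list were 111079.7 on the KO array and 47897.4 on the WT array. The brightest on both arrays were Mzb1, Xbp1 and Jchain, at 1.53, 0.97 and 1.06 on the log2 scale. On the WT array they read 10930.8, 15838.9 and 13593.4, against 29480.0, 28935.4 and 26366.0 on the KO array. Sdc1, with the largest difference of the measured plasma cell markers, read 928.7 on the KO array and 76.9, near the floor, on the WT array. Its 3 measured probe sets ran from 0.79 to 3.70 on the log2 scale. T cell markers had 3 of 7 measured genes lower by 2-fold or more, against 4.45% of all measured genes, and none higher. The lower ones were led by Cd4 (932.2 on the KO array and 3022.3 on the WT array). Summed signals of the T cell list were 38230.3 on the KO array and 70792.0 on the WT array. The part of either in the differences of Odc1, Srm and Oat was not tested.

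**Figure D4:**
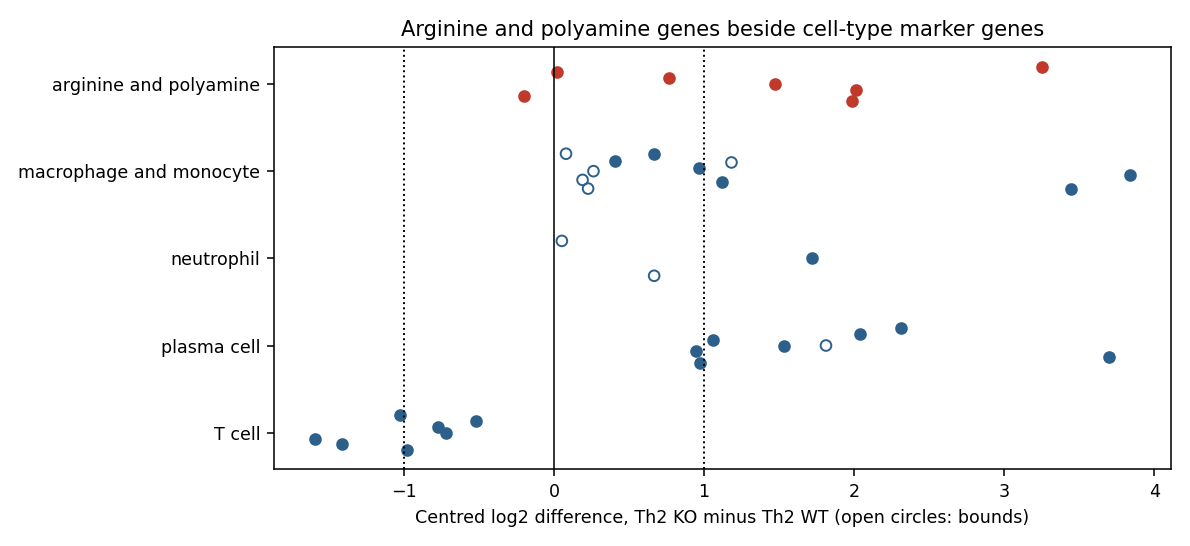
Centred log2 difference, KO minus WT, of 7 arginine and polyamine genes (red) and of marker genes of macrophages and monocytes, neutrophils, plasma cells and T cells (blue). Filled points are measured genes, open points are bounds, and dotted lines mark 2-fold. Chil3, Lyz2 and the plasma cell marker Sdc1 lie beyond Arg1, and all 7 T cell markers lie below 0. The WT signals of Chil3 (78.0) and Sdc1 (76.9) were near the floor of 69.2. Each point is the brightest probe set, and those of Sdc1 ran from 0.79 to 3.70.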

How the data were processed

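RNA of 2 samples, 1 Ecm1 knockout and 1 wild type, was hybridised as biotin-labelled cRNA to Affymetrix mouse arrays, per the labels' protocols. The deposited file gives 1 linear signal intensity per probe set and array. The labels do not state how the authors summarised the probes. The central 96% of values averaged 499.8 on each array while the 75th percentiles were 423.4 (KO) and 456.2 (WT), so the deposited intensities carry a global scaling and were not quantile normalized. No detection calls were used, and the number of arrays limits the precision.

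Of the 45101 probe sets, 34945 had 1 symbol, 932 had several, 9160 had none and 64 were controls. Only probe sets with 1 symbol named genes. The listed Pycr3 was found as Pycrl through RefSeq synonyms. A gene took its brightest probe set, and a gene below the floor on 1 array had only a bound against that floor. Python 3.11.15, numpy 2.4.6, pandas 2.3.3 and statsmodels 0.14.6 were used. The procedure was tested on simulated data.

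The 10 genes, the pathway and marker lists and the alternatives were chosen with earlier results of these data known. Named were the 10 genes, all pathway genes at least 2-fold apart, of the others the 2 brightest in each role, the 3 genes nearest to the gene with the largest difference, and the markers. Marker genes were named as examples after their values were seen. Alternatives were no centring, quantile normalization, loess (span 0.3), no floor, a floor at the 70th percentile, the mean of all probe sets, and no probe sets ending in _x_at or _s_at.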

Additional observations from a re-analysis of the deposited data

How the results depend on the processing

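No paired analysis was possible because there is 1 array per group. Under the alternatives that left them measured, Arg1 ran from 3.15 to 3.28, Odc1 from 1.81 to 2.01, Srm from 1.88 to 1.98, Oat from 1.37 to 1.47 and Sat1 from -0.38 to -0.20 on the log2 scale. Ass1 ran from -0.08 to 0.11, so its sign is not settled, and Azin1 from 0.66 to 1.15, past 2-fold only with all probe sets averaged. Raising the floor to the 70th percentile put the WT signal of Arg1 below it, and its difference then had a bound of at least 5.06-fold. Among the other pathway genes, 3 were at least 2-fold higher at that floor and 2 with probe sets averaged, against 5. At least 2-fold lower were 1 without centring (Adi1, -1.02) and 2 with no floor (Otc and Aldh4a1), against none. With no floor, 2818 of 18193 genes were at least 2-fold higher and 2316 lower, against 725 and 451 of 10144. Each difference rests on 1 array a group, and Arg1, Ass1, Slc7a2 and Slc7a7 were no longer measured on both arrays at the higher floor.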

Other observations

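Probe sets that the platform annotation lists under 2 symbols entered no comparison. A probe set listed under both Ass1 and the predicted gene Gm5424, 1416239_at, read 1773.9 on the KO array and 3104.1 on the WT array, a log2 difference of -0.70. It was brighter than the probe set of Ass1 alone, which was at 0.02, and the source of its signal between the 2 genes is not known here. Of the 3 probe sets listed under both Sms and Sms-ps, 1421052_a_at read 1563.0 on the KO array and 1807.8 on the WT array (-0.11). The second, 1434190_at, read 489.6 on the KO array and 591.3 on the WT array (-0.17). The third, 1428699_at, read 42.0, below the floor, on the KO array and 126.8 on the WT array, a difference of at least 1.80-fold lower on the KO array. None of the 4 was higher on the KO array. The differences of -0.11 and -0.17 were smaller than the 0.36 spread between probe sets of 1 gene.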
